A study of Bos grunniens with 18 samples.

Results

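The 8 genes described here, grouped under the name of secreted sperm-coating proteins, were followed through an atlas of N6-methyladenosine (m6A) in the epididymis of the yak (Bos grunniens): ELSPBP1, CRISP2, CLU, PATE2, SPAM1, SPADH1, APOD and AKR1B1. They were chosen by symbol, in any letter case, and the 8 symbols matched 14 of the 18467 gene rows of the deposited expression table. ELSPBP1, CRISP2, CLU and SPAM1 each had a pair of rows, AKR1B1 had 3, and PATE2, SPADH1 and APOD had 1 each. Rows that share a symbol are numbered here from the highest median level down. At least 1 m6A peak was listed in the comparison tables for 9 of the 14 rows, and these 9 rows covered all 8 symbols. The ontology terms deposited with the table named an extracellular location for 6 of the 8 genes. SPAM1 carried a membrane term instead, and AKR1B1 carried neither, so the description as secreted proteins was not borne out by the table for these genes.

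Sperm leave the testis unable to fertilize and mature while they pass through the caput (head), corpus (body) and cauda (tail) of the epididymis, where they are stored. The epithelium secretes proteins into the duct, and some of these bind the sperm membrane, carry lipids, keep other proteins soluble or prepare the sperm for its later contact with the egg's coats. m6A is adenosine methylated at its N6 position within messenger RNA. It is written by a methyltransferase complex, is often found near stop codons and in long exons, and is read by proteins that affect splicing, translation and decay of the transcript. In m6A immunoprecipitation sequencing, fragmented RNA is pulled down with an antibody to the mark and compared with input RNA that was not pulled down.

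The study took epididymal tissue from 6 healthy, untreated adult male yaks, 4 years old, and divided it by anatomy into caput, corpus and cauda. For each region the labels gave 3 immunoprecipitated and 3 input libraries, 18 libraries in all, made from polyadenylated RNA of whole tissue. They did not tie libraries to animals, so whether the replicates of a region, or the regions, share animals could not be read from them. Peak values were deposited as comparisons between regions, with no value per library, and predicted m6A positions as 1 list per region.

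Input levels were deposited as FPKM (fragments per kilobase of transcript, scaled to the mapped fragments of a library) in 9 columns whose names begin with EA, EB or EC, 3 columns each. These codes match no region label, so no column was assigned to a region, no column entered a test, and the levels cannot be set beside the regional peak values. The relative depth of the columns, read from the whole-read steps of low FPKM values, was 0.961 to 1.21 times that of EA2_1. Across all genes, log2 levels correlated at 0.966 to 0.984 among the EA columns and 0.976 to 0.988 among the EB columns. The columns EC3_2 and EC4_1 correlated at 0.984, but EC2_2 correlated with them at 0.936 and 0.941 and with EA2_1 at 0.948. EC2_2 thus stood apart from its code, and the comparisons of codes are given with and without it. Of the tissue markers, 7 of 8 symbols of an epididymal epithelium list had a row, all 7 with a median of at least 1 FPKM, led by AQP9 (median 466) and EPCAM (398), with a summed level of 1022 to 1546 FPKM. Members of this list differed between codes in opposite ways. PAX2 was at 34.9 to 60.6 FPKM in the EA columns and 148 to 251 in the EC columns. Adgrg2 was at 27.7 to 42.7 and 1.73 to 2.33 FPKM in the same columns. Smooth muscle markers summed to 2889 to 5773 FPKM, fibroblast markers to 332 to 1047, endothelial markers to 24.4 to 58.7 and leukocyte markers to 28.3 to 61.2.

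ELSPBP1 encodes a small secreted protein built of fibronectin type II domains that the epididymal epithelium adds to the sperm surface. Its first row (ENSBGRG00000024950) was among the most abundant transcripts of the tissue, with a median of 1791 FPKM and rank 55 of 18467 genes. It stood at 2161, 3505 and 3036 FPKM in EA2_1, EA3_1 and EA4_1, at 1474, 1791 and 2146 in EB1_3, EB1_4 and EB2_1, and at 287, 566 and 926 in EC2_2, EC3_2 and EC4_1. The 3 codes did not overlap: every EA column lay above every EB column, and every EB column above every EC column. The EA median was 5.36 times the EC median, with a ratio of 4.07 without EC2_2 and 7.12 without EC4_1. In whole tissue, fewer cells of a type and less RNA per cell cannot be told apart, here or for any level below.

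The other ELSPBP1 row (ENSBGRG00000024976) had a median of 26.7 FPKM and no listed peak. Its values were 31.6, 77.3 and 42.2 FPKM in the EA columns, 26.7, 34.9 and 25.5 in the EB columns and 5.61, 9.48 and 13.4 in the EC columns. The EC columns were again the lowest, while EA2_1 lay below EB1_4. The first row exceeded it by 45.3 to 84.1 times in every column, with a Pearson correlation of log2 levels of 0.967 over the 9 columns. The sources used here do not say how reads that map to more than 1 place were counted, so reads of near-identical copies may be divided between such rows and the split between rows of 1 symbol is uncertain.

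SPADH1 encodes a spermadhesin, a CUB-domain protein of seminal fluid that binds the sperm surface in cattle and their relatives. Its single row (ENSBGRG00000025185) had 341, 447 and 299 FPKM in the EA columns, 76.3, 17.2 and 25.5 in the EB columns and 27.6, 194 and 31.7 in the EC columns. Every EA column lay above the other 6, of which EC3_2 came nearest. The EA median was 13.4 times the EB median, and 6.70 and 7.29 times it without EB1_4 and without EB2_1.

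**Figure D1:**
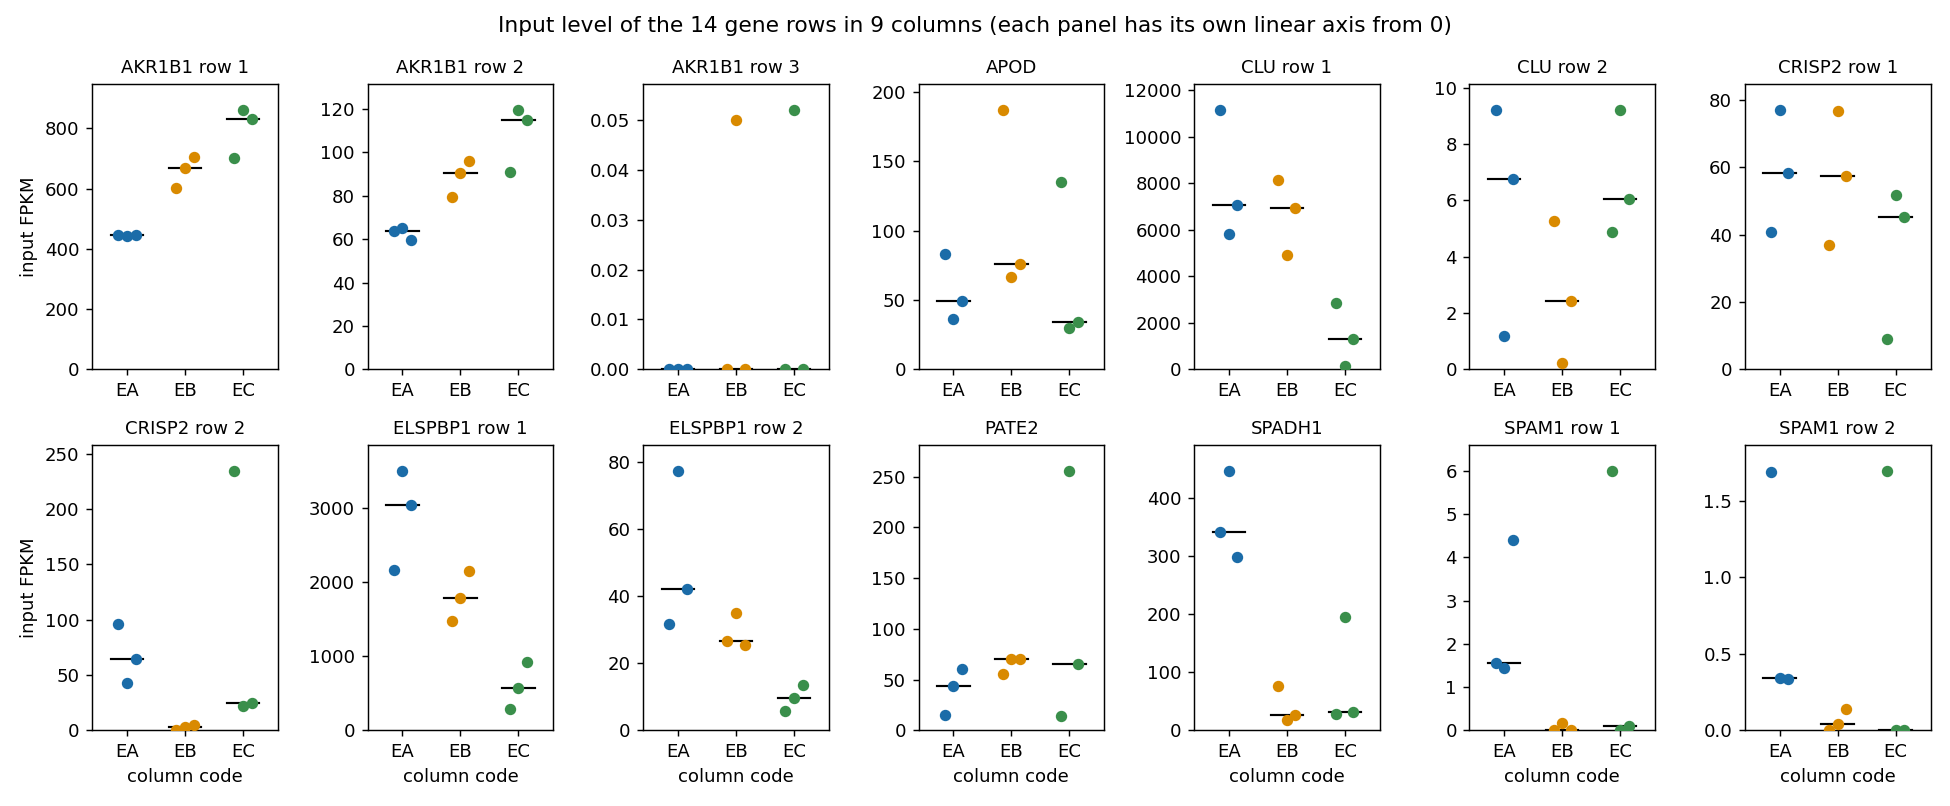
Input level (FPKM, linear axis from 0, one axis per panel) of each of the 14 gene rows in the 9 input columns, grouped on the horizontal axis by column code; points are columns and bars are the median of a code. ELSPBP1 row 1 is highest in the EA columns (median 3036 FPKM) and lowest in the EC columns (median 566), both expressed AKR1B1 rows are lowest in EA, and CRISP2 row 2 and the SPAM1 rows have a single high EC column, EC2_2.

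CRISP2 belongs to the CAP family of cysteine-rich secretory proteins. It is made in the testis and built into the acrosome and tail, while its relatives CRISP1 and CRISP3 are secreted along the male tract. The 2 rows with the symbol CRISP2 behaved differently. The row with the higher median (ENSBGRG00000023771) is described in the table as cysteine rich secretory protein 3, so its symbol and its description disagree; it is called CRISP2 row 1 here. It had 40.8, 77.2 and 58.3 FPKM in the EA columns, 36.8, 76.9 and 57.4 in the EB columns and 8.87, 51.9 and 45.2 in the EC columns. The codes overlapped, and EC2_2 was the lowest column.

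CRISP2 row 2 (ENSBGRG00000023959), described as cysteine rich secretory protein 2, had 96.5, 43.1 and 64.6 FPKM in the EA columns and 0.338, 2.76 and 4.92 in the EB columns. In EC2_2, EC3_2 and EC4_1 it stood at 234.8, 22.1 and 24.3 FPKM. Every EB column lay below the other 6, and the EA median was 23.4 times the EB median. With a column of these codes left out, the ratio ran from 16.8 (without EB1_3) to 41.7 (without EB2_1). EC2_2 was the highest column for this row and the lowest for CRISP2 row 1, and the correlation of log2 levels between both rows was -0.46 over the 9 columns.

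SPAM1 encodes a membrane-anchored hyaluronidase of the sperm head, made in the testis and also by epididymal cells, that digests the matrix around the egg. Both SPAM1 rows were at or near 0 in the EB columns, EC3_2 and EC4_1. SPAM1 row 1 (ENSBGRG00000024538) had 1.56, 1.45 and 4.40 FPKM in the EA columns and 6.00 in EC2_2, against 0.158 in EB1_4 and 0.0897 in EC4_1, and it was listed at 0 in EB1_3, EB2_1 and EC3_2. The steps of its values correspond to at least 64, 72, 173 and 266 reads in the EA columns and EC2_2 and to at least 7 and 4 reads in EB1_4 and EC4_1. SPAM1 row 2 (ENSBGRG00000024255) had 1.69, 0.343 and 0.337 FPKM in the EA columns, 0.0426 in EB1_4, 0.138 in EB2_1 and 1.70 in EC2_2, and it was listed at 0 in EB1_3, EC3_2 and EC4_1. Both rows were therefore highest in EC2_2 and the EA columns, and no fold between codes is given because of the zeros.

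Markers of sperm and spermatids, whose RNA epididymal tissue can hold, were summed beside these rows. A list of 18 sperm and spermatid symbols, of which 16 had a row, summed to 1643, 1039 and 1037 FPKM in the EA columns, 45.2, 27.5 and 120.5 in the EB columns, and 3341, 425 and 439 in EC2_2, EC3_2 and EC4_1. It was led by TNP1, a transition protein of spermatid chromatin, at 816, 576 and 546 FPKM in the EA columns, 2.63, 7.36 and 74.7 in the EB columns and 1483, 307 and 301 in the EC columns. PRM2, a protamine, ranged from 0.356 FPKM in EB1_3 to 170 in EC2_2. Of the 17 rows of the list 14 had a median of at least 1 FPKM, and none had a median of 0. CRISP2 row 2 ordered the columns as this sum did, apart from exchanges between EA3_1 and EA4_1 and between EB1_3 and EB1_4. The part of sperm or spermatid RNA in the levels of CRISP2 row 2 and SPAM1 was not tested. Multiciliated cell markers also summed highest in EC2_2 (55.9 FPKM) and EA2_1 (49.9), against 5.77 to 21.7 in the other 7 columns. TEKT1 (21.5 FPKM) and CFAP126 (17.8) led the sum in EC2_2. RSPH4A, alone in this list, did not share the pattern, with 0.0221 FPKM in EC2_2, 1.84 in EA2_1 and 2.17 in EA4_1.

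**Figure D2:**
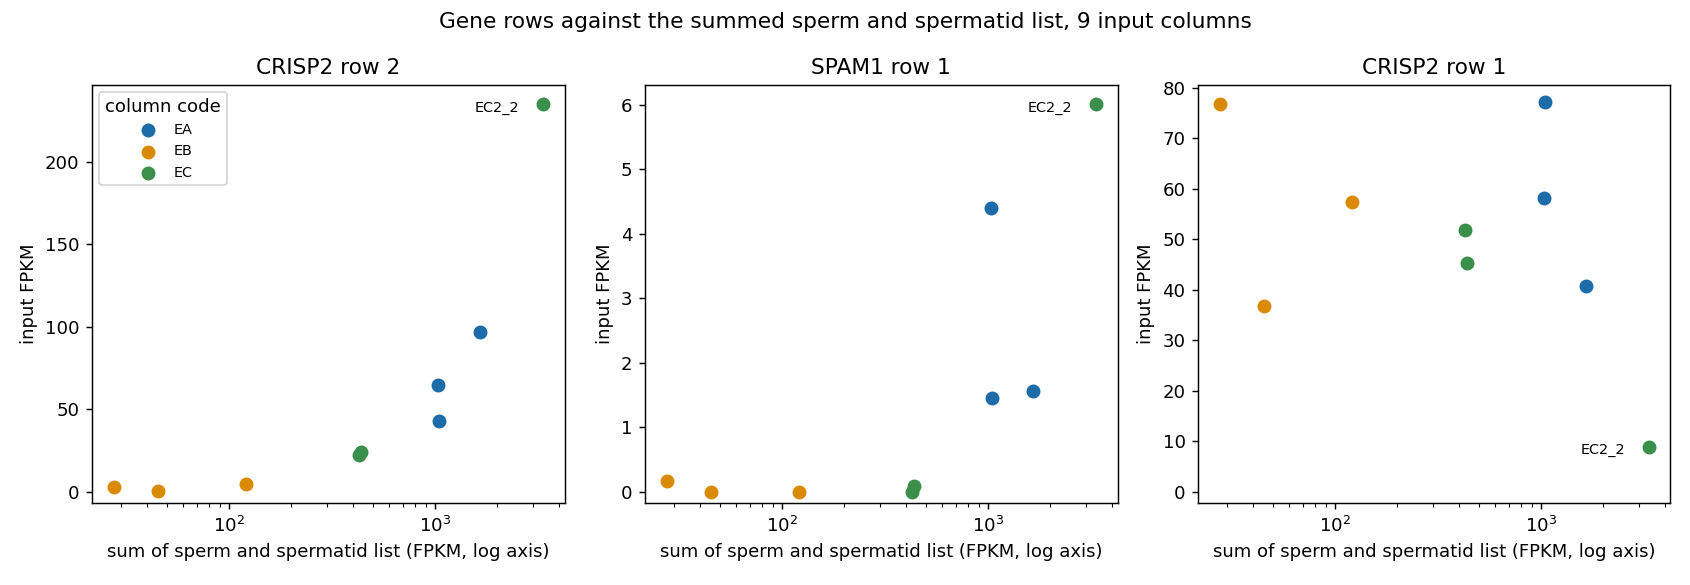
Input level (FPKM, linear) of CRISP2 row 2, SPAM1 row 1 and CRISP2 row 1 against the summed level of the sperm and spermatid list (FPKM, log axis), with 1 point per input column, coloured by column code. CRISP2 row 2 and SPAM1 row 1 are highest in EC2_2, where the list sums to 3341 FPKM, and CRISP2 row 1 is lowest there.

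PATE2 encodes a small secreted protein of the Ly6 type, from a family expressed in prostate, testis and epididymis. Its row (ENSBGRG00000020078) had 14.8, 44.0 and 60.3 FPKM in the EA columns, 55.0, 69.8 and 70.6 in the EB columns and 14.2, 256 and 65.3 in EC2_2, EC3_2 and EC4_1. The EB columns were close to each other, whereas the lowest and the highest of all 9 columns both carried the EC code. The codes overlapped.

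CLU encodes clusterin, a secreted chaperone that binds misfolded proteins and coats maturing sperm. CLU row 1 (ENSBGRG00000001455) was the most abundant of the 14 rows, with a median of 5814 FPKM and rank 14 of all genes. It had 11177, 5814 and 7076 FPKM in the EA columns, 8138, 4935 and 6943 in the EB columns and 2832, 137 and 1309.5 in EC2_2, EC3_2 and EC4_1. All EC columns lay below the other 6, and the lowest of them, EC3_2, lay far below the other EC columns. The EA median was 5.40 times the EC median of 1309.5 FPKM. The ratio was 9.78 without EC2_2, where the EC median was 723, and 3.42 without EC3_2. CLU row 2 (ENSBGRG00000001185) lay at a lower level, with 9.21, 1.19 and 6.74 FPKM in the EA columns, 5.27, 0.207 and 2.42 in the EB columns and 4.89, 9.22 and 6.04 in the EC columns. Its codes overlapped, its steps correspond to at least 7 reads in EB1_4 and 300 in EC3_2, and its log2 levels correlated with those of row 1 at -0.32.

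APOD encodes apolipoprotein D, a lipocalin that carries small hydrophobic molecules such as arachidonic acid and steroids. Its row (ENSBGRG00000022918) had 83.3, 36.1 and 48.9 FPKM in the EA columns, 187, 66.7 and 75.5 in the EB columns and 135, 30.0 and 33.9 in EC2_2, EC3_2 and EC4_1. In each code a single column, EA2_1, EB1_3 or EC2_2, lay well above the others, and the codes overlapped.

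AKR1B1 encodes aldose reductase, a cytosolic enzyme that reduces glucose to sorbitol and also acts on aldehydes and prostaglandins, known in bovine epididymal epithelium and vesicles. AKR1B1 row 1 (ENSBGRG00000004261) had 446, 443 and 446 FPKM in the EA columns, 603, 667 and 707 in the EB columns and 703, 863 and 832 in the EC columns. AKR1B1 row 2 (ENSBGRG00000013005) had 63.7, 65.3 and 59.5 FPKM in the EA columns, 79.5, 90.3 and 96.1 in the EB columns and 90.8, 119.8 and 115 in the EC columns. In both rows all EA columns were below the other 6, and the EC median was 1.86 and 1.80 times the EA median. Without EC2_2 these ratios were 1.90 and 1.84. The ratio of row 1 to row 2 stayed at 6.78 to 7.74 in every column, with a correlation of 0.989, so whether these rows were measured apart is uncertain for the reason given for ELSPBP1. AKR1B1 row 3 (ENSBGRG00000001517) had at least 1 read each in EB1_4 (0.0502 FPKM) and EC3_2 (0.0522) and was listed at 0 in the other 7 columns.

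Among the 11 member rows with a median of at least 1 FPKM, 2 had all EA columns above the other 6 (ELSPBP1 row 1 and SPADH1), against 5.45% of the 12302 genes with such a median. All EA columns lay below the other 6 in 2 rows, AKR1B1 rows 1 and 2, against 6.95% of genes. All EB columns lay below the others in 1 row, CRISP2 row 2, against 7.93%, and all EC columns in 3 rows, both ELSPBP1 rows and CLU row 1, against 4.12%. No member row had all EB or all EC columns above the others. Without EC2_2, all EA columns were above the rest in 3 rows, CRISP2 row 2 being added, against 11% of genes. Without it, both AKR1B1 rows also had the remaining EC columns above all others, against 13% of genes, and APOD joined the rows with the EC columns below all others, which made 4 rows against 8.54%. CRISP2 row 2 still had all EB columns below the rest, against 8.85%, and the AKR1B1 rows all EA columns below the rest, against 8.01%. These counts describe columns and were not tested.

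Ordered by median FPKM, CLU row 1 (5814) was followed by ELSPBP1 row 1 (1791) and AKR1B1 row 1 (667), then by AKR1B1 row 2 (90.3), SPADH1 (76.3), APOD (66.7), PATE2 (60.3) and CRISP2 row 1 (51.9). ELSPBP1 row 2 (26.7), CRISP2 row 2 (24.3), CLU row 2 (5.27), SPAM1 row 1 (0.158) and SPAM1 row 2 (0.138) came next. Only AKR1B1 row 1 and row 2 were neighbours without overlap, with a lowest value of 443 against a highest of 119.8 FPKM. All other neighbours in this order had overlapping ranges over the 9 columns. SPADH1 had a median of 135 FPKM without EB1_4, EB2_1, EC2_2 or EC4_1 and of 113 without EB1_3, each above that of AKR1B1 row 2 over the same columns. The medians of the SPAM1 rows also turned on single columns, and reached 0.804 FPKM for row 1 and 0.237 for row 2 without EB1_3 or EC3_2.

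The regional comparison of m6A asked which peaks of these transcripts differed between caput, corpus and cauda. ELSPBP1 and the CRISP2 row described as CRISP3 each carried a peak that was higher in the cauda. For ELSPBP1 the peak was called against both the caput and the corpus, and for CRISP2 against the caput. No peak of CLU, PATE2, SPAM1, SPADH1, APOD or AKR1B1 was called in any comparison at an adjusted p under 0.05. Folds are given as the first-named region over the second. The sources used here name neither the peak caller nor the test, nor whether the fold is relative to input, and comparisons that share a region share its libraries.

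The ELSPBP1 peak lies on chromosome 20, minus strand, at chr20:60455307-60455656 in the comparison of cauda with caput and at chr20:60455357-60455656 in the other comparisons. In the authors' deposited table it was 1.25-fold higher in cauda than in caput, a log2 fold of 0.33 with an adjusted p of 0.0257. Against the corpus, the authors' deposited table gave a fold of 1.19, a log2 fold of 0.25 and an adjusted p of 0.038. Between corpus and caput, the authors' deposited table gave a log2 fold of 0.08 with an adjusted p of 0.689. These were small folds among called peaks: by the authors' deposited table, 20% of the peaks called higher in cauda than in caput, and 15.6% of those called higher in cauda than in corpus, had a lower fold. Because the sources used here name no genome build, no exon or untranslated region can be named for this or the other peaks.

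CRISP2 row 1 had 3 peaks on chromosome 24, plus strand. The first, at chr24:12645121-12645270, was 1.38-fold higher in cauda than in caput in the authors' deposited table, a log2 fold of 0.47 with an adjusted p of 0.0479, just inside the threshold. For corpus over caput the authors' deposited table gave this peak a log2 fold of 0.28 (adjusted p 0.233), and for cauda over corpus 0.18 (adjusted p 0.858). The peaks at chr24:12645519-12645767 and chr24:12646016-12646215 were listed for corpus over caput alone, with log2 folds of 0.26 and 0.07 and adjusted p of 0.857 and 0.963 in the authors' deposited table. All 5 values of the row were positive, with 1 past the threshold. The values of the first peak come from comparisons that share regions, so their signs are not independent. No peak was listed for CRISP2 row 2, the row described as CRISP2 itself.

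In all, the authors' deposited tables held 24 values for 15 distinct peaks of these genes. For corpus over caput 0 of 10 member peaks were called, against 2.98% of all 14061 peaks, and 4 had an unadjusted p under 0.05, 2 in each direction, against 16.4% of all peaks in the authors' deposited table. For cauda over caput 2 of 6 member peaks were called, both higher in cauda, against 2.27% of 13826 peaks, and the same number had an unadjusted p under 0.05, against 17.2% in the authors' deposited table. For cauda over corpus 1 of 8 was called, higher in cauda, against 1.96% of 13917 peaks, and 2 had an unadjusted p under 0.05, 1 in each direction, against 16.4% in the authors' deposited table. Medians of the member peaks' log2 folds were 0.06, 0.11 and 0.05 in these comparisons, beside -0.02, 0.04 and 0.05 over all peaks of the authors' deposited tables.

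**Figure D3:**
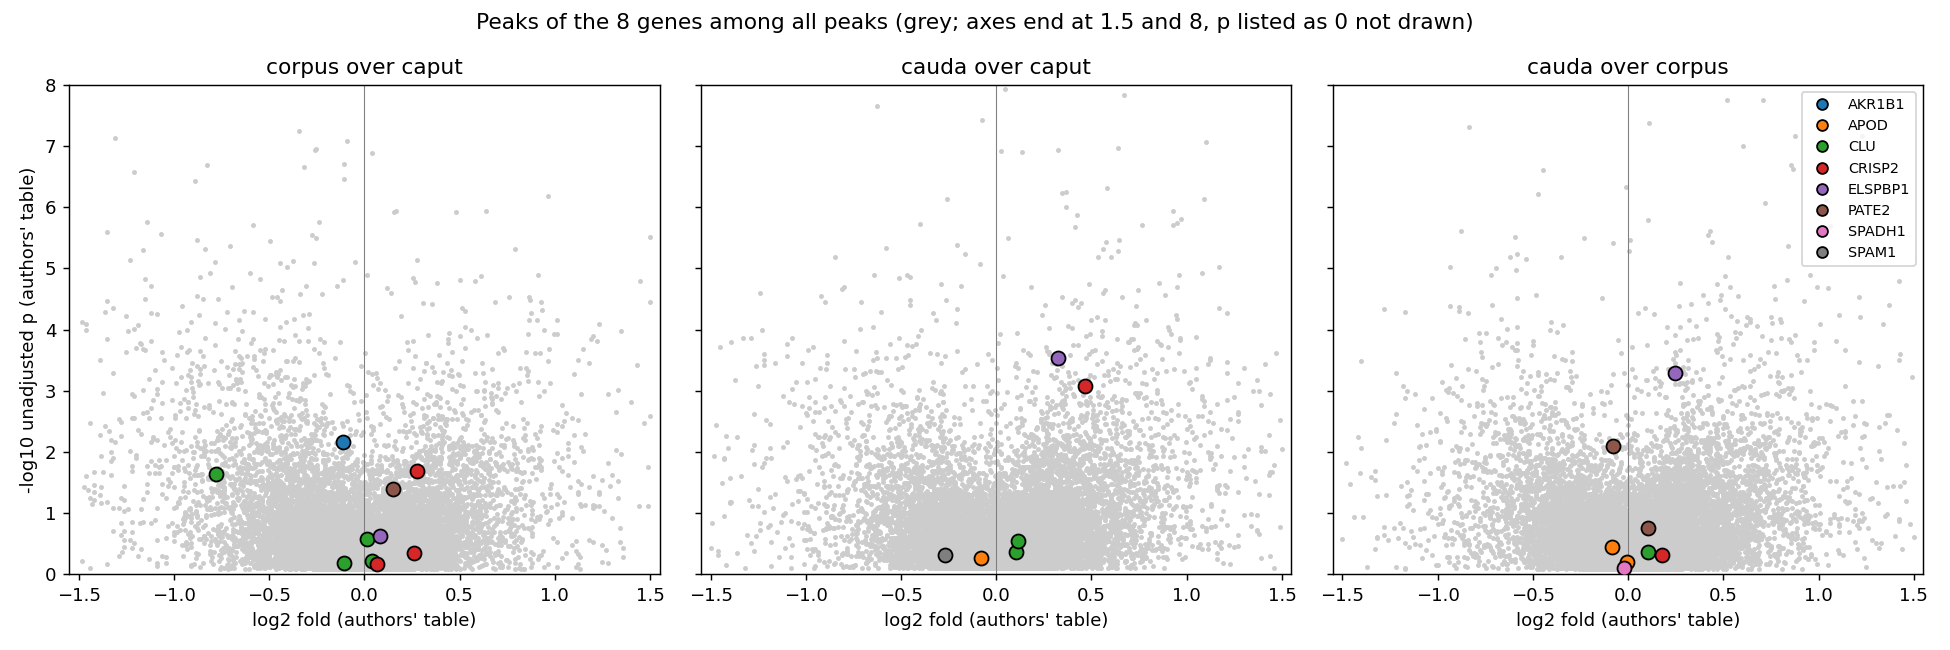
Each peak's log2 fold (horizontal axis) and -log10 unadjusted p (vertical axis) from the authors' deposited tables, one panel per comparison; large points are peaks of the 8 genes and grey points all others within the axes. ELSPBP1 and CRISP2 lie at the upper right of the panel of cauda over caput, with log2 folds of 0.33 and 0.47, and ELSPBP1 again in the panel of cauda over corpus.

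CLU row 1 had 3 peaks along chromosome 7, minus strand. The peak at chr7:111980707-111980906, which was 50 bases shorter in the comparisons with cauda, had log2 folds of 0.01 for corpus over caput, 0.12 for cauda over caput and 0.11 for cauda over corpus in the authors' deposited tables, with adjusted p from 0.714 to 0.821. Its other peaks, at chr7:111984189-111986735 and chr7:111987383-111988863, had log2 folds of 0.04 and -0.11 for corpus over caput in the authors' deposited table. The peak of CLU row 2, at chr7:10216228-10216870, had the lowest member value of the study, a log2 fold of -0.78 for corpus over caput, with an unadjusted p of 0.0229 and an adjusted p of 0.248, by the authors' deposited table. For cauda over caput the authors' deposited table gave it 0.11, with an adjusted p of 0.836.

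PATE2 had a pair of peaks on chromosome 29, plus strand. The one at chr29:21972006-21972355 had a log2 fold of 0.15 for corpus over caput and -0.08 for cauda over corpus in the authors' deposited tables, with unadjusted p of 0.0398 and 0.00813 and adjusted p of 0.325 and 0.163. The other, at chr29:21970105-21970862, had a log2 fold of 0.10 (adjusted p 0.598) for cauda over corpus in the authors' deposited table. The AKR1B1 peak, at chr4:23681759-23690092 on the plus strand, spanned 8334 bases for a listed length of 149, so it crosses at least 1 intron, and was given a log2 fold of -0.11 for corpus over caput with an unadjusted p of 0.00676 and an adjusted p of 0.14, by the authors' deposited table.

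APOD had a peak that spanned 3540 bases, at chr1:78244686-78248225, and another at chr1:78258833-78259182, both on the plus strand. The first had log2 folds of -0.08 for both cauda over caput and, 100 bases shorter, cauda over corpus in the authors' deposited tables, with adjusted p of 0.898 and 0.78, and the other had -0.0057 (adjusted p 0.938) for cauda over corpus in the authors' deposited table. SPAM1 row 1 had a single peak, at chr4:34754880-34755075 on the minus strand, with a log2 fold of -0.27 (adjusted p 0.874) for cauda over caput in the authors' deposited table. SPADH1 had one at chr25:46347955-46353521 on the plus strand, with a log2 fold of -0.02 (adjusted p 0.99) for cauda over corpus in the authors' deposited table. These genes were listed in 1 or 2 of the 3 comparisons, and a peak that a table does not list has no value here.

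A peak was listed for both of the member rows above 1000 FPKM, ELSPBP1 row 1 and CLU row 1. Across all 105 genes with a median of at least 1000 FPKM, 29.5% had a listed peak, compared with 74.7% of the genes between 10 and 100 FPKM. In that middle range 4 of 7 member rows had a peak, those of CRISP2 row 1, PATE2, SPADH1 and APOD. SPAM1 row 1 had a peak at a median of 0.158 FPKM, where 11.9% of genes under 1 FPKM did.

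Predicted m6A positions were deposited for each region as adenosines with a combined score and a class, from very high confidence to no m6A site. The same position carried the same score in each region that listed it. Inside the peaks of these genes lay 56 distinct positions, 16 of them listed in 3 regions, 20 in 2 and 20 in 1. Of these 56, 13 were classed as m6A sites: 4 with high, 5 with moderate, 4 with low and 0 with very high confidence. The share classed was 18.2% of 44 positions in caput (95% Wilson interval 9.51 to 32.0%), 17.1% of 35 in corpus (8.10 to 32.7%) and 20.7% of 29 in cauda (9.85 to 38.4%). Over all positions of the lists it was 19.1%, 19.3% and 19.1%. The intervals cover counting error only, and with 1 list per region no replicate error exists. They also take positions as independent, although many lie together in the same peak, so they test no difference from the shares over all positions.

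No position inside the called peaks was classed as an m6A site. ELSPBP1 had 5 positions in the cauda list, with scores of 0.364 to 0.509, none of them classed, and none in the caput or corpus list. The called peak of CRISP2 row 1 held no listed position in any region; its 2 candidates, with scores of 0.519 and 0.298 and neither classed, lay in the peak at chr24:12646016-12646215 and were listed in caput and corpus.

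SPADH1 had the highest score of the member positions. Its 6 positions were listed in cauda alone and 5 were classed, led by 0.674 at position 46350360 and 0.633 at position 46351536 of chromosome 25, both of high confidence. SPADH1 thus held 5 of the 6 classed member positions in cauda. They lay in its single peak, which spanned 5567 bases for a listed length of 198. For cauda over corpus the authors' deposited table gave that peak a log2 fold of -0.02 (adjusted p 0.99). PATE2 had 12 positions in caput and the same number in corpus, 3 classed in each, with 0.634 at 21972161 (high confidence), 0.604 at 21972187 (moderate) and 0.575 at 21972156 (low) of chromosome 29. It had none in the cauda list, although both of its peaks were compared between cauda and corpus. APOD was listed in every region, with 18, 16 and 18 positions in caput, corpus and cauda, and a single classed one, 0.624 with high confidence at 78258917 of chromosome 1.

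CLU row 1 had 4 positions in caput and 5 in corpus, 2 classed in each, the highest 0.615 at 111986654 of chromosome 7, and none in cauda. CLU row 2 had 3 in caput alone, 2 of them classed at 0.588 and 0.576. SPAM1 row 1 had 5 positions in caput, none classed, and AKR1B1 had no listed position in any region.

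**Figure D4:**
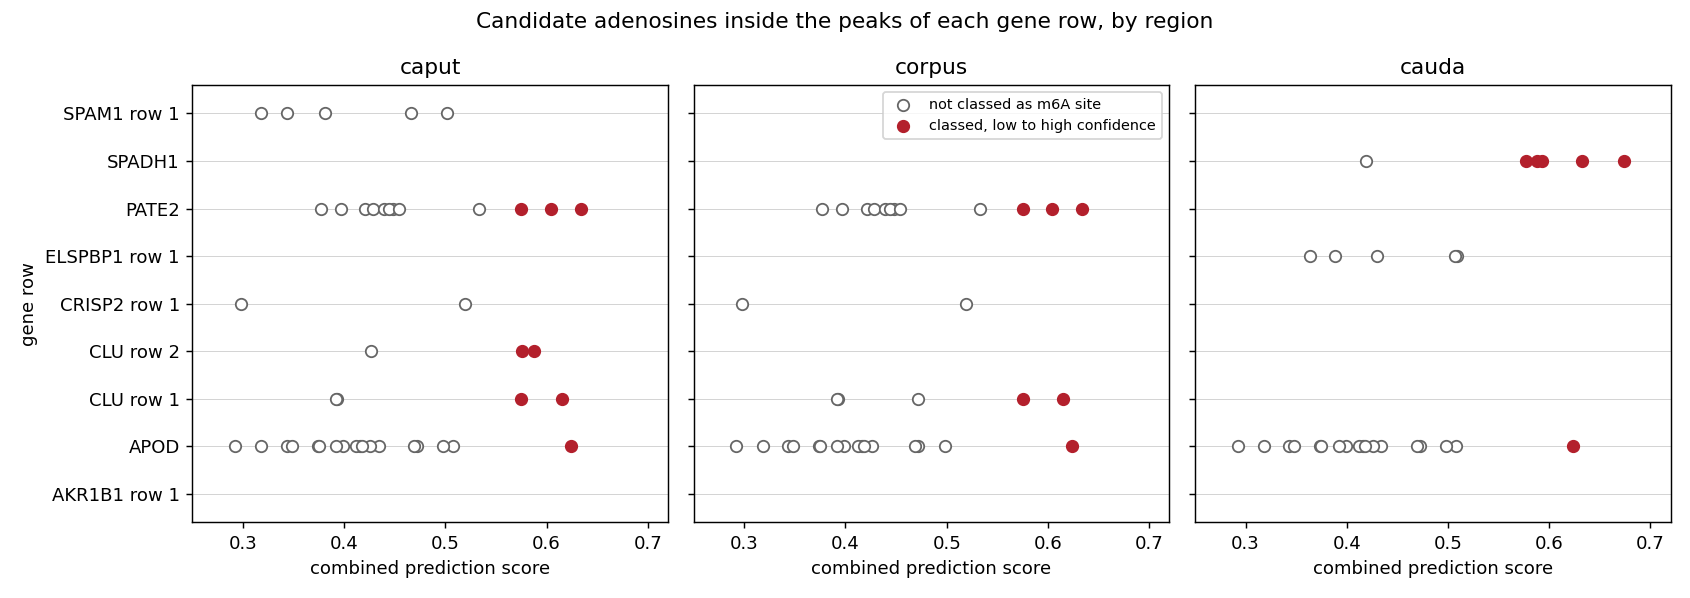
Combined prediction score (horizontal axis, no unit) of each candidate adenosine inside the peaks of the 9 gene rows with a peak, one panel per region; filled points are classed as m6A sites and open points are not. SPADH1 and ELSPBP1 row 1 appear in the cauda panel alone, CLU, PATE2 and CRISP2 row 1 in caput, corpus or both, and APOD in all 3.

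For each row except AKR1B1 row 3, which was at 0 in 7 columns, the genes with the most similar pattern were the 3 with the highest Pearson correlation of log2(FPKM + 1) over the 9 columns, among 12065 genes with a symbol and a median of at least 1 FPKM. The columns share codes and depth differences, so the values describe likeness and nothing more. ELSPBP1 row 1 was most like ARSK (0.984), Sh3gl2 (0.978) and the beta-defensin DEFB105A (0.977), and ELSPBP1 row 2 most like ESPN (0.984), NUP210 (0.981) and P3H3 (0.972). SPADH1 was most like MCFD2 (0.967), GNMT (0.957) and RAB25 (0.943). CRISP2 row 1 was most like PCCB (0.956), HSD17B6 (0.943) and CBSL (0.938), and CRISP2 row 2 most like T-enol (0.999), DBIL5 (0.993) and GSG1 (0.993). SPAM1 row 1 followed Tssk4 (0.975), ARRDC5 (0.969) and CHD5 (0.962), and SPAM1 row 2 followed NT5M (0.993), KIF9 (0.991) and TRIM28 (0.991). Row 2 of SPAM1 passed 1 FPKM in EA2_1 (1.69) and EC2_2 (1.70) alone, so its correlations rest largely on these columns.

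PATE2 was most like ALDH18A1 (0.95), SMIM20 (0.927) and NOMO1 (0.924). CLU row 1 was most like FBP2 (0.966), Ift172 (0.962) and PEX11A (0.956), CLU row 2 most like HDGFL3 (0.918), PHF5A (0.905) and Gfm1 (0.895), and APOD most like MYC (0.975), ZBTB40 (0.957) and CDK6 (0.957). AKR1B1 row 1 was most like TSTD1 (0.991), AKR1B1 row 2 (0.989) and TBKBP1 (0.987), and AKR1B1 row 2 also had Dtnb (0.987) and TBKBP1 (0.984) beside it. With 1 column left out, 15 to 24 of these 39 genes were named again, the fewest without EC2_2. CRISP2 row 2 kept 2 of its 3 without EC2_2 and SPAM1 row 2 kept 1, whereas CRISP2 row 1, CLU row 1, PATE2 and SPAM1 row 1 kept 0.

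Other secreted epididymal and sperm-binding proteins gave the setting for these levels. Of a list of 56 symbols 41 had a row, and 35 of the 47 rows had a median of at least 1 FPKM. Highest were the lipocalin Lcn5 (30961 FPKM), the sterol carrier NPC2 (12440.3), the surface antigen CD52 (7954), the protease inhibitors WFDC2 (6721) and SPINT4 (3253) and the carboxylesterase CES5A (3075). CLU row 1, at a median of 5814 FPKM, lay within the range of these 6 medians, and ELSPBP1 row 1, at 1791, lay below all of them. That order is one of medians, and some of these genes varied widely between columns. CD52 ran from 126 to 138549 FPKM, SPINT4 from 11.9 to 23297 and CES5A from 2.20 to 7110. In the EA columns ELSPBP1 row 1 lay above CD52 and CES5A, and in the EB and EC columns below both. Lcn5, NPC2 and WFDC2 lay above it in every column. For corpus over caput 2 of their 12 peaks were called, both lower in corpus, against 2.98% of all peaks. For cauda over caput 1 of 10 was called higher and 2 lower, against 2.27%, and for cauda over corpus 0 of 14 were called, against 1.96%. All called peaks of the list lay in ADAM28, a metalloprotease-family gene. In the authors' deposited tables the log2 folds of these ADAM28 peaks ran from -2.26 to 0.13, with adjusted p from 5.25e-07 to 0.0251.

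Calls in the gene lists set beside these genes are read against the same shares of all peaks, 2.98% for corpus over caput, 2.27% for cauda over caput and 1.96% for cauda over corpus. With so few peaks, none of the counts says more than its own values. In the CAP family, to which CRISP2 belongs, 0 of 6, 8 and 6 peaks were called in the 3 comparisons, and the highest level was that of CRISP1 (521 FPKM). Of the hyaluronidase list, 4 of 8 symbols had a row, led by HYAL1 (5.92 FPKM), and 1 of 7 peaks was called for cauda over corpus, in CEMIP, with a log2 fold of 0.10 and an adjusted p of 0.0447, by the authors' deposited table, with 0 of 7 called in each of the other comparisons. The list of apolipoproteins and lipocalins is wider than the lipocalin family of APOD. In this list 1 of 4 peaks was called for cauda over caput, in APOL3, with a log2 fold of 0.95 and an adjusted p of 8.13e-04, by the authors' deposited table. For corpus over caput 0 of 5 were called, and for cauda over corpus 0 of 2. The list set beside AKR1B1 joins polyol and aldo-keto reductase genes with prostaglandin genes such as PTGES (23.5 FPKM). In this list, led by AKR1A1 (144 FPKM), 0 of 9, 9 and 6 peaks were called. Of the sperm and spermatid list, 2 of 7 peaks were called lower in corpus than in caput, in AKAP3 and Akap4, which build the sheath of the sperm tail, with log2 folds of -0.30 and -0.42 and an adjusted p of 0.0141 each, by the authors' deposited table. For this list 0 of 12 peaks were called for cauda over caput and 0 of 2 for cauda over corpus.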

How the data were processed

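Input and m6A-immunoprecipitated RNA of caput, corpus and cauda was sequenced as paired reads. The submitters' processing notes list Trimmomatic, HISAT2 and deepTools. Versions, genome build, peak caller, differential test and site predictor are not stated in the labels, notes or file headers used here. The deposited expression table gives FPKM per gene, per the file headers. The authors' comparison tables give p-values, adjusted p-values, a linear fold (a ratio) and its log2 value for each peak. The deposited prediction lists give a score per adenosine, per the file headers. Candidate positions were counted once each, at their highest score, inside the peaks of a gene.

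From these values, the input columns were used as FPKM for levels, ranks, ratios, overlaps and sums. For correlations they were used as log2(FPKM + 1). Python 3.11.15, numpy 2.4.6 and pandas 2.3.3 were used. Gene rows were chosen by symbol and peaks by gene identifier. A peak was called at the authors' adjusted p under 0.05, and no count model was run, because no table holds counts. Relative depth and fewest reads came from whole-read steps of FPKM, within 0.05 of a read; 0 columns of sample values were left unused. Starts are counted from 1. All 8 genes were named, with the 3 genes most like each row except AKR1B1 row 3, at 0 in 7 columns. Of each gene list at most the 6 most abundant were named. Every gene with a called peak was named for the lists whose calls are given above. Other cell type marker lists, such as the multiciliated list, also held called peaks, which are not given. The genes and lists were chosen with earlier results of these data known. Scripts were tested on simulated data. Other p thresholds, pseudocounts, filters, classes and left-out columns were tried.

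The labels do not say whether replicates came from separate animals, and the test behind the p-values is not named. Which spread the p-values measure is therefore unknown, and it may be technical.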

Additional observations from a re-analysis of the deposited data

How the results depend on the processing

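At an unadjusted p under 0.05 the called member peaks numbered 4 for corpus over caput, 2 for cauda over caput and 2 for cauda over corpus, and none passed when a 2-fold change was also asked for (0 in each comparison). With the high and very high classes alone, 2, 2 and 3 member positions were classed in caput, corpus and cauda, from 8, 6 and 6. With every line of the cauda list counted, 46 positions fell inside the peaks, from 29. With a pseudocount of 0.1, 23 of the 39 most similar genes were named again, and with 1 column left out 15 to 24, the lowest without EC2_2. With a column left out, the median over columns moved by over 1.5 times for SPAM1 row 1 (0.158 to 0.804 FPKM), SPAM1 row 2 (0.138 to 0.237 or 0.0901) and SPADH1 (76.3 to 135). Positions counted over the whole stretch of a gene's peaks, and code differences with a column left out, were chosen after seeing the data. No paired analysis was possible because no table holds values for the labelled replicates and the column codes carry no replicate number of the labels. The depth of the peaks is unknown, and the codes of the input columns limit every level to a description.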
